A study of Mus musculus with 6 samples.

Results

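The CCN genes encode 6 small secreted proteins of the extracellular matrix, and 5 of them (*Cyr61*, *Ctgf*, *Nov*, *Wisp1* and *Wisp2*, now also named *Ccn1* to *Ccn5*) are described here with 5 further genes that are read as targets of the transcriptional co-activator YAP (*Ankrd1*, *Amotl2*, *Lats2*, *Ajuba* and *Axl*). These are 10 of the 30281 gene symbols in the deposited table. The list was fixed by name with earlier results of these data known. *Nov* and *Ctgf* were chosen by their measured values, since both were seen to be higher in *Tsc2*-/- mouse embryo fibroblasts (MEFs). Levels and ratios in the MEFs are therefore a description with no test.

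RNA-Seq of poly(A) RNA was done on 6 mouse libraries, with 1 library per condition. The fibroblast libraries came from *Tsc2*-/- p53-/- MEFs and from *Tsc2*+/+ p53-/- MEFs, so loss of p53 is shared by both. The other libraries came from MKOC cells, a line of *Tsc2*-null kidney epithelial cells, and from TJ cells, *Tsc2*-null kidney epithelial cells labelled as derived from a secondary tumor in C57BL6 mice. Each kidney line was left untreated or was given 100 nM rapamycin, an inhibitor of mTORC1, for 18 hr in serum-free medium. No label gives separate cultures of a line, so p-values measure the spread between these libraries, which may be technical.

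YAP and its paralog TAZ (encoded by *Wwtr1*) enter the nucleus when the Hippo kinases are inactive, bind TEAD transcription factors and raise transcription of their targets. The kinases MST1 and MST2 (*Stk4* and *Stk3*) activate LATS1 and LATS2, which phosphorylate YAP and TAZ and keep them in the cytoplasm. *Cyr61*, *Ctgf* and *Ankrd1* are standard readouts of YAP activity, and *Amotl2* and *Lats2* are targets whose products act back on YAP as inhibitors. CCN proteins bind integrins and other receptors at the cell surface, and *Ctgf* is also a well known target of TGF-beta.

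TEAD factors recognise the hexamer GGAATG, so the promoters of the genes are shown for that motif, which is in capitals below on either strand (the reverse complement is CATTCC). RefSeq windows on GRCm38.p6, from 250 bases before to 50 bases after the start site, were found for 6 of the 10 genes. In the set of windows used, none was found for *Ctgf*, *Nov*, *Wisp1* and *Wisp2* under the older or the newer name. The 250 bases before the start of *Cyr61* (chr3:145649986-145650235, minus strand) and of *Ankrd1* (chr19:36119845-36120094, minus strand) are printed whole as the best known readouts. Shorter stretches around the matches follow for *Amotl2* (chr9:102717712-102717771, plus strand), *Ajuba* (chr14:54577815-54577874, minus strand), *Axl* (chr7:25788934-25788983, minus strand) and *Lats2* (chr14:57746094-57746146, minus strand).
Cyr61: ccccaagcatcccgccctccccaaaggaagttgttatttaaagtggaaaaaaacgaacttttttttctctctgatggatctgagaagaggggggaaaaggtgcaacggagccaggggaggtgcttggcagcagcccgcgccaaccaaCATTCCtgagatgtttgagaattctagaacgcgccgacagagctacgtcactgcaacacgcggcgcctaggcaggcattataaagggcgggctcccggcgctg
Ankrd1: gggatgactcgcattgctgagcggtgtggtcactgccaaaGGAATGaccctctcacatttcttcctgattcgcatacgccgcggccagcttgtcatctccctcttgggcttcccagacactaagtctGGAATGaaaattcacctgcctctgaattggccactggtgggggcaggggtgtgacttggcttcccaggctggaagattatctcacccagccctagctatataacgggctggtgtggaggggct
Amotl2: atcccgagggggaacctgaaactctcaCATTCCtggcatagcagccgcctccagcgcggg
Ajuba: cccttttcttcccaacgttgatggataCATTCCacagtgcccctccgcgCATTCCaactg
Axl: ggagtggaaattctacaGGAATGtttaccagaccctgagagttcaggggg
Lats2: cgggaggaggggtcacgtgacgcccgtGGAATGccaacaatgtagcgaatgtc

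All 6 genes with a window held the TEAD hexamer, which stood in 14.7% of 32851 mouse windows of this length and in at least 1 window of 16.6% of 27025 genes. Counted from the start site, the first base of the match lay at -103 in *Cyr61*, at -210 and -123 in *Ankrd1*, at -65 in *Amotl2*, at -186 and -164 in *Ajuba*, at -233 in *Axl* and at 5 in *Lats2*. *Lats2* has a second annotated window, which held no match. The AP-1 heptamer TGANTCA (7.81% of windows) and the CArG box of SRF (1.63% of windows) were found in 0 of the 6 genes. A match describes letters in these windows and is not a measured binding site. The genes were listed as YAP targets, so nothing is read from the share that held the hexamer.

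Library size ranged from 22887020 to 37505004 estimated read pairs. *Tsc2* RNA was 22.6 TPM (a relative level corrected for transcript length) in the library labelled *Tsc2*+/+ and 10.5 TPM in the one labelled *Tsc2*-/-. In the kidney lines labelled *Tsc2*-null it was 49.1 TPM (MKOC) and 44.0 TPM (TJ) untreated, and 19.5 and 19.1 TPM with rapamycin. Which part of the gene is deleted is not given in the sources used here, so genotypes are given as labelled. Of 8 fibroblast markers, 6 and 7 reached 1 TPM in the *Tsc2*+/+ and *Tsc2*-/- MEFs, with summed levels of 1824 and 2502 TPM, against 7.73 to 52.0 TPM in the kidney lines. Of 8 kidney epithelial markers, 4 reached 1 TPM in each kidney library, where the list summed to 584 to 952 TPM. Of these, *Cdh16* was at 395 to 720 TPM, *Pax8* at 121 to 164 TPM and *Pax2* at 12.2 to 18.7 TPM, while *Umod* and *Lhx1* were at 0 there and *Aqp2* at no more than 0.179 TPM. *Lrp2* was at 0.0850 to 0.151 TPM in the kidney lines, below its 6.02 TPM in *Tsc2*-/- MEFs. All 7 mesothelial markers reached 1 TPM in the *Tsc2*-/- MEFs (sum 533 TPM), whereas 1 did (*Msln*) and 3 were at 0 in the *Tsc2*+/+ MEFs (sum 2.71 TPM).

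The CCN ligands spanned a wide range of levels. *Cyr61* (chr3:145646976-145649981, minus strand), a heparin-binding protein of early growth responses, was at 13.6 TPM in *Tsc2*+/+ MEFs, 139 TPM in *Tsc2*-/- MEFs, 79.7 TPM in untreated MKOC, 238 TPM in MKOC with rapamycin, 116 TPM in untreated TJ and 201 TPM in TJ with rapamycin. *Ctgf* (chr10:24595442-24598683, plus strand), which promotes matrix deposition, was at 0.0431 TPM in *Tsc2*+/+ MEFs, from 3 read pairs, and at 52.1 TPM in *Tsc2*-/- MEFs. In the kidney lines *Ctgf* was at 19.8 TPM (MKOC) and 26.3 TPM (TJ) untreated, and at 145 and 112 TPM with rapamycin. Both genes had the same order of libraries: rapamycin-treated MKOC, rapamycin-treated TJ, *Tsc2*-/- MEFs, untreated TJ, untreated MKOC and *Tsc2*+/+ MEFs. No neighbours in that order had overlapping 95% counting intervals (Wilson, which cover counting error and no replicate error).

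*Nov* (chr15:54745702-54754039, plus strand), a CCN protein often found to restrain proliferation, had another pattern. The *Tsc2*-/- MEFs had 29.7 TPM of it, and the *Tsc2*+/+ MEFs had 0.711 TPM. In the kidney lines it was below 1 TPM, at 0.481 TPM (MKOC, 26 read pairs) and 0.372 TPM (TJ, 18.1 read pairs) untreated, and at 0.0717 TPM (3.01 read pairs) and 0.266 TPM with rapamycin. *Nov* thus stood above 1 TPM in 1 library, and below it the counting intervals of all 4 pairs of neighbours overlapped. *Wisp1* (chr15:66891320-66923201, plus strand), a Wnt-induced member of the family, was at 7.58 TPM in *Tsc2*+/+ MEFs, and *Tsc2*-/- MEFs had 55.2 TPM. *Wisp1* was at 22.6 and 23.8 TPM in MKOC and at 19.6 and 18.9 TPM in TJ, untreated and with rapamycin. *Wisp2* (chr2:163820861-163833146, plus strand), which lacks the carboxy-terminal module of the family, was at 7.18 and 12.3 TPM in *Tsc2*+/+ and *Tsc2*-/- MEFs, at 1.57 and 2.47 TPM in MKOC and at 2.04 and 5.21 TPM in TJ. The remaining family member, *Wisp3*, was at or below 0.418 TPM everywhere and at 0 in both rapamycin libraries.

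**Figure D1:**
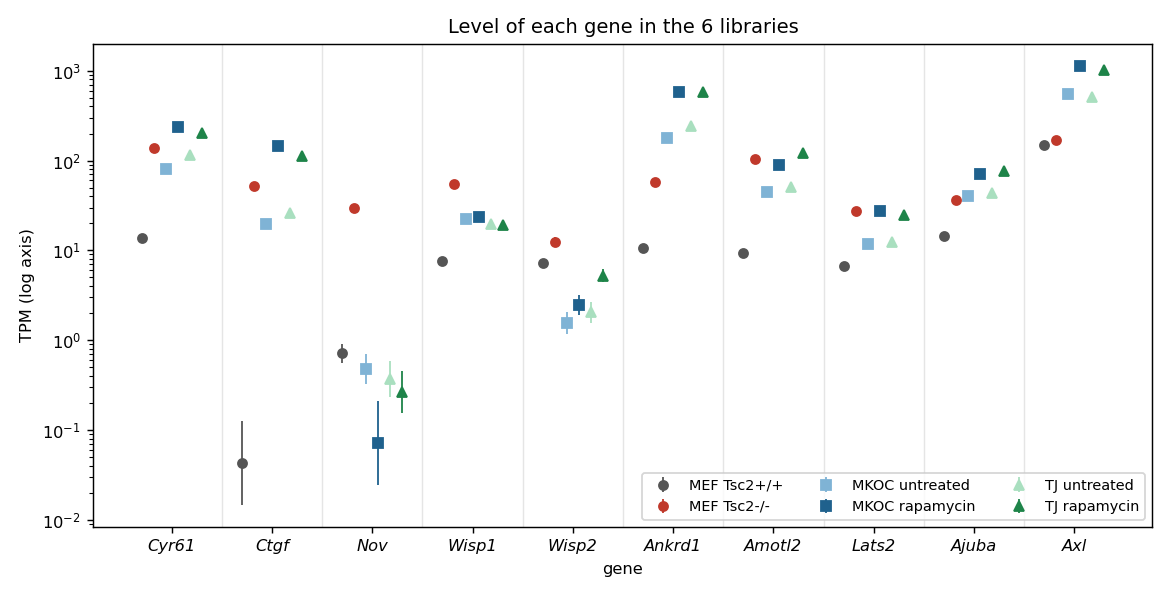
TPM (log axis) of each of the 10 genes in the 6 libraries. Each point is 1 library and bars are 95% counting intervals, most of them smaller than the point. *Ctgf* in *Tsc2*+/+ MEFs is the lowest value plotted (0.0431 TPM), and *Nov* lies between 0.0717 and 0.711 TPM in every library but that of *Tsc2*-/- MEFs.

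Among the other genes, the regulators of transcription and of Hippo signaling had intermediate levels and the receptor was the most abundant. *Ankrd1* (chr19:36111961-36120099, minus strand), a nuclear ankyrin-repeat cofactor, was at 10.6 and 58.4 TPM in *Tsc2*+/+ and *Tsc2*-/- MEFs. It was at 179 TPM in MKOC and 243 TPM in TJ untreated, and at 586 and 581 TPM with rapamycin. *Ankrd1* was thus higher in every kidney library than in either MEF library. *Amotl2* (chr9:102716672-102733418, plus strand), an angiomotin that binds and retains YAP, was at 9.38 and 104 TPM in the MEFs, at 44.3 and 50.5 TPM in untreated MKOC and TJ, and at 88.4 and 121 TPM with rapamycin. *Lats2* (chr14:57689662-57758388, minus strand), the kinase of YAP, was at 6.70 and 27.7 TPM in the MEFs, at 11.8 and 12.4 TPM in untreated MKOC and TJ, and at 27.5 and 25.01 TPM with rapamycin. For *Lats2* the level in *Tsc2*-/- MEFs and that in rapamycin-treated MKOC had overlapping counting intervals. *Ajuba* (chr14:54567472-54577558, minus strand), a LIM protein that inhibits LATS kinases, was at 14.4 and 36.2 TPM in the MEFs, at 40.6 and 43.8 TPM in untreated MKOC and TJ, and at 71.1 and 76.4 TPM with rapamycin. *Axl* (chr7:25757273-25788705, minus strand), a receptor tyrosine kinase for Gas6, was at 150 and 169 TPM in the MEFs, at 550 and 516 TPM in untreated MKOC and TJ, and at 1122 and 1024 TPM with rapamycin. In all 10 genes the TPM value of *Tsc2*-/- MEFs lay above that of *Tsc2*+/+ MEFs, but nothing is read from this count. The contrast chose *Nov* and *Ctgf*, and the median log2 ratio, with 1 added to each TPM, was 0.45 over 12771 genes. The share of all genes that lay above was not counted. For *Axl* the order turned with the scaling, with a log2 ratio of -0.07 when counts scaled to library size replaced TPM.

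The MEF comparison asked which RNAs differ with loss of *Tsc2*. With 1 added to each TPM, 8 of the 10 genes were at least 2-fold higher in *Tsc2*-/- MEFs and 0 were at least 2-fold lower, where 25.2% and 5.18% of 12771 genes with at least 1 TPM in either library were. This contrast chose *Nov* and *Ctgf*, so nothing is read from the count. The median log2 ratio was 2.53 over the 10 genes, *Nov* and *Ctgf* included, and 0.45 over all 12771, and nothing is read from it either. The ratio of TPM values had a median of 1.31 (0.39 on the log2 scale) over the 7377 genes at 10 TPM or more in both libraries, so ratios are best read against that shift. In bulk RNA, fewer cells of a type and less RNA per cell cannot be told apart.

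*Ctgf* had the widest difference of the CCN genes, with a log2 ratio of 5.67 after adding 1 and a plain TPM ratio of 1209 whose counting interval ran from 413 to 5869, because the lower level rests on 3 read pairs. *Nov* followed with 4.17, a plain ratio of 41.8 (32.3 to 55.2). The 2 genes ranked 46 and 173 of 12771 by log2 ratio, the measure by which they were chosen, so the ranks are a description. *Cyr61* had a log2 ratio of 3.26 and a plain ratio of 10.2 (9.48 to 11.1). *Wisp1* had a log2 ratio of 2.71 and a plain ratio of 7.28 (6.82 to 7.79). *Wisp2* lay outside the 2-fold limit, with a log2 ratio of 0.71 and a plain ratio of 1.72 (1.45 to 2.04).

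The other YAP targets had ratios in the same range as *Cyr61* or below it. *Amotl2* had a log2 ratio of 3.34, *Ankrd1* of 2.36, *Lats2* of 1.90 and *Ajuba* of 1.27, the lowest inside the 2-fold limit. *Axl* had a log2 ratio of 0.17, and -0.22 relative to the median shift, so its direction turned with the scaling. *Ajuba* came to 0.88 relative to that shift, which left 7 genes at least 2-fold higher, the same number as with CPM (counts scaled to library size, with no correction for length) in place of TPM. Marker lists of other cell types move with this comparison. The mesothelial markers were at 533 TPM against 2.71 TPM, and the 7 epithelial markers summed to 77.7 TPM against 0.150 TPM, most of it *Krt19* (55.6 TPM), which is in both lists, and *Krt18* (20.6 TPM). The fibroblast marker *Dcn* was at 422 TPM against 7.08 TPM. The part of these markers in the values above was not tested.

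**Figure D2:**
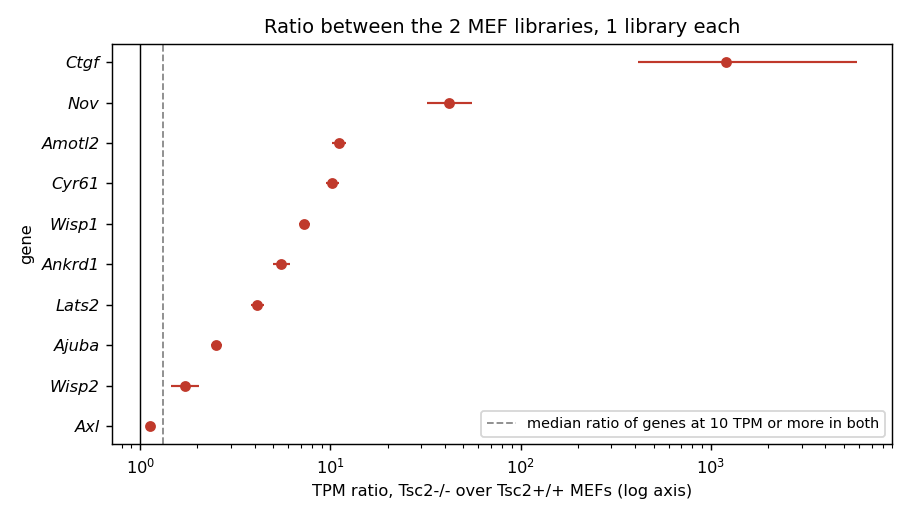
TPM ratio of *Tsc2*-/- over *Tsc2*+/+ MEFs (log axis, nothing added) for each gene, with 95% intervals for counting error from 1 library each. The dashed line is the median ratio of 1.31. *Ctgf* has the highest ratio, 1209, and the widest interval, and *Axl* alone lies below the dashed line.

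Other genes of the same pathways were set beside them. Of 25 genes that encode the Hippo and YAP core, 10 were at least 2-fold higher and 0 lower in *Tsc2*-/- MEFs, beside 25.2% and 5.18% of all genes. *Wtip*, a LIM protein related to Ajuba, was at 2.11 and 24.9 TPM and *Vgll3*, a TEAD cofactor, at 9.54 and 52.2 TPM in *Tsc2*+/+ and *Tsc2*-/- MEFs, whereas the scaffold *Sav1* (log2 ratio -0.38) and the kinase *Lats1* (-0.20) were slightly lower. *Yap1* was at 25.2 and 72.2 TPM and *Wwtr1* at 23.4 and 56.1 TPM. Of 16 further YAP and TAZ targets that reached 1 TPM, 9 were at least 2-fold higher, beside the same 25.2%. *Igfbp3* was listed at 0 in *Tsc2*+/+ MEFs and at 291 TPM in *Tsc2*-/- MEFs, and *Edn1*, which encodes endothelin-1, was at 0.0147 and 8.63 TPM. Tissue factor (*F3*) was not among the 9, with a log2 ratio of -0.55.

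In the neighbouring pathways, 8 of 15 MRTF and SRF genes, 6 of 14 TGF-beta pathway genes, 7 of 10 CCN receptor genes and 3 of 4 genes of Axl ligands and paralogs were at least 2-fold higher, and 0 in these lists were 2-fold lower, beside 25.2% and 5.18% of all genes. *Thbs1* (thrombospondin-1) was at 9.63 and 165 TPM and *Tgfbi* at 0.306 and 20.3 TPM. *Tagln* (transgelin) was at 12.9 and 95.9 TPM, and the endocytic receptor *Lrp1* at 8.97 and 49.2 TPM. *Gas6*, the ligand of Axl, was at 0.0396 and 26.5 TPM, while *Axl* itself was similar in both libraries. The list medians of the log2 ratio were 1.004, 0.95, 1.30 and 1.93, beside 0.45 for all genes.

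Summed over the 6 family members, CCN RNA was 29.3 TPM in MEFs labelled *Tsc2*+/+ and 289 TPM in those labelled *Tsc2*-/-. It was 124 TPM in untreated MKOC and 164 TPM in untreated TJ, and 410 and 337 TPM with rapamycin. *Cyr61* made up the largest share in every library, from 46.4% to 70.5% of the sum. *Ctgf* was 0.147% of the sum in *Tsc2*+/+ MEFs, 18.0% in *Tsc2*-/- MEFs, 15.9% and 16.0% in untreated MKOC and TJ, and 35.5% and 33.2% with rapamycin. *Wisp1* and *Wisp2* were 25.9% and 24.5% of the sum in *Tsc2*+/+ MEFs, while *Nov* reached 10.3% in *Tsc2*-/- MEFs and at most 0.387% in the kidney lines.

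**Figure D3:**
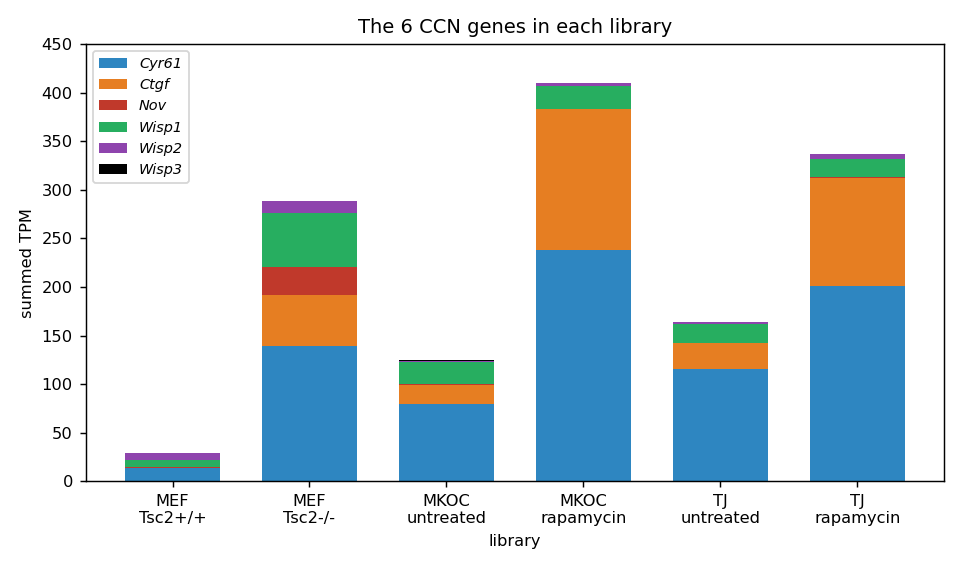
Summed TPM of the 6 CCN genes in each library, stacked by gene, with 1 library per bar. The bars rise from 29.3 TPM in *Tsc2*+/+ MEFs to 410 TPM in rapamycin-treated MKOC, and the orange part, *Ctgf*, grows between untreated and rapamycin-treated cells of both kidney lines.

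The kidney lines asked what rapamycin changes in *Tsc2*-null epithelial cells. The *Tsc2*-/- MEFs had no rapamycin library, so this comparison shares no library with the one that chose *Nov* and *Ctgf*. The 10 genes and the lists were chosen with earlier results of these data known, so their independence from the kidney libraries is not established. With the line as a covariate and the lines as replicates (n = 2 per treatment), 8 of the 10 genes rose with rapamycin and 0 fell at an adjusted p under 0.05 in edgeR's quasi-likelihood test, where 17.5% of 12952 genes rose and 17.4% fell. All 10 passed the filter on low counts. The median log2 fold change was 1.09 over the 10 genes and 0.02 over all genes tested. At an unadjusted p under 0.05, 1 gene (*Nov*) was lower by edgeR, where 22.3% of all genes were, and 0 by DESeq2, where 16.7% were and *Nov* had a log2 fold change of -1.53 and no adjusted p. In limma, 0 of the other 9 genes were lower, beside 20.5% of all genes, and *Nov* was under the filter on low values and was not fitted. Without the line as a block 7 genes rose, beside 4.32% of all genes, and DESeq2 also called 7 higher, beside 12% of all genes, *Wisp2* being lost in both cases (adjusted p = 0.187 and 0.135).

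*Ctgf* had the largest change of the 10, and ranked 25 of 12952 genes from the top. Its log2 fold change was 2.47 (SE 0.17, adjusted p = 1.18e-05), a 5.53-fold rise with a 95% interval of 4.27 to 7.16. By line, the TPM ratio was 7.33 in MKOC (19.8 to 145 TPM) and 4.25 in TJ (26.3 to 112 TPM), so the treated libraries did not overlap the untreated ones. *Cyr61* rose by 1.18 on the log2 scale (SE 0.16, adjusted p = 0.000469). Its TPM ratio was 2.98 in MKOC and 1.74 in TJ, and both treated libraries lay above both untreated ones. With 1 library per line and treatment, the difference between the lines was not tested.

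Of the other CCN genes, 1 passed the test. *Wisp2* rose by 0.99 (SE 0.30, adjusted p = 0.0284), from 47.0 to 56 read pairs in MKOC and from 53 to 135 in TJ. *Wisp1* had a log2 fold change of -0.02 (SE 0.11, adjusted p = 0.902) with a 95% interval from -0.26 to 0.21, and its treated and untreated levels overlapped. *Nov* had a log2 fold change of -1.34 (SE 0.55, adjusted p = 0.0826), from 26 to 3.01 read pairs in MKOC and from 18.1 to 13 in TJ. Its plain TPM ratio was 0.149 (counting interval 0.0288 to 0.486) in MKOC and 0.716 (0.324 to 1.55) in TJ, so in TJ the interval includes no difference.

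All 5 of the other YAP targets rose, beside 17.5% of all genes. *Ankrd1* rose by 1.48 on the log2 scale (SE 0.12, adjusted p = 3.06e-05), with TPM ratios of 3.28 in MKOC and 2.39 in TJ. *Lats2* rose by 1.12 (SE 0.12, adjusted p = 0.00011), with ratios of 2.33 and 2.01. *Amotl2* also rose by 1.12 (SE 0.10, adjusted p = 5.6e-05), with ratios of 1.996 and 2.39. *Ankrd1*, *Lats2* and *Amotl2* are the target with the nuclear product and the pair with inhibitory products, and in each the treated libraries of both lines lay above the untreated ones. *Axl* rose by 1.06 (SE 0.11, adjusted p = 0.000124), with ratios of 2.04 and 1.98. *Ajuba* rose by 0.80 (SE 0.10, adjusted p = 0.000268), with ratios of 1.75 in both lines. The lines thus gave nearly the same size of change for *Axl* and *Ajuba*.

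**Figure D4:**
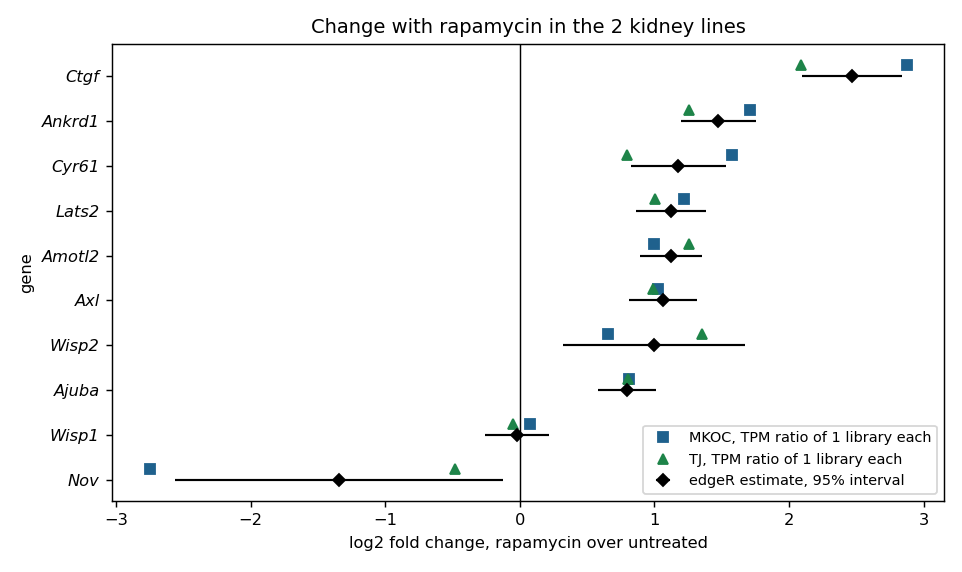
Log2 fold change with rapamycin for each gene. Black diamonds are the edgeR estimate over both kidney lines with its 95% interval, and squares and triangles are log2 TPM ratios of MKOC and TJ, 1 library per treatment with nothing added. The 8 genes called higher lie to the right of 0 in both lines, *Wisp1* lies at 0 and *Nov* to the left.

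The Hippo and YAP core genes did not move together with rapamycin. Of 24 that passed the filter, 3 rose and 4 fell, close to the 17.5% and 17.4% of all genes, and the median was 0.13. The angiomotin *Amot* rose by 0.69 (adjusted p = 0.00394) and *Ptpn14*, a phosphatase that binds YAP, by 0.55 (adjusted p = 0.00246). *Amotl1* fell by 0.80 (adjusted p = 0.00715), opposite to *Amot* and *Amotl2*, and *Wwtr1* fell by 0.48 (adjusted p = 0.00788). *Yap1* had a log2 fold change of 0.15 (adjusted p = 0.258), and *Lats1*, the paralog of *Lats2*, of 0.11 (adjusted p = 0.458).

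Of 14 further YAP and TAZ targets that passed the filter, 5 rose and 3 fell, beside 17.5% and 17.4% of all genes. *Edn1* rose by 1.82 (adjusted p = 6.37e-06) and *Asap1* by 0.93 (adjusted p = 0.000183). *Areg*, an EGF receptor ligand, fell by 1.92 (adjusted p = 0.000259) and the ectonucleotidase *Nt5e* fell by 1.88 (adjusted p = 0.000157).

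Of 14 MRTF and SRF genes, 5 rose and 0 fell, beside 17.5% and 17.4% of all genes, among them *Egr1* (log2 fold change 1.51, adjusted p = 0.00312) and the calponin *Cnn2* (0.93, adjusted p = 0.000172). Of 13 TGF-beta pathway and target genes, 10 rose and 0 fell, beside the same 17.5% and 17.4%, with a median of 0.69 against 0.02 for all genes. *Thbs1* rose by 1.80 (adjusted p = 7.89e-06) and *Ltbp2* by 1.78 (adjusted p = 1.64e-05). The inhibitory *Smad7* rose by 1.06 (adjusted p = 0.000169) and the type II receptor *Tgfbr2* by 0.69 (adjusted p = 0.000786). Of 10 CCN receptor genes, 3 rose (*Itgb5* by 1.45, *Lrp1* by 0.66 and *Sdc4* by 0.40) and 0 fell, again beside 17.5% and 17.4%. *Gas6* rose by 0.35 (adjusted p = 0.0197), and the Axl paralog *Tyro3* had a log2 fold change of 0.17 (adjusted p = 0.302). Of the cell type markers tested, 3 of 4 epithelial (*Krt8* by 0.79, *Krt18* by 0.78 and *Cldn4* by 0.31), 2 of 7 fibroblast (*Col3a1* by 1.53 and *Dcn* by 0.82), 1 of 5 kidney epithelial (*Cdh16* by 0.37), 1 of 2 mesothelial (*Msln* by 0.70), 1 of 2 macrophage and blood cell (*Csf1r* by 0.45) and 0 of 2 endothelial markers rose, and 0 fell. Summed epithelial markers went from 952 to 1492 TPM in MKOC and from 968 to 1636 TPM in TJ, and the part of these markers in the changes above was not tested.

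**Figure D5:**
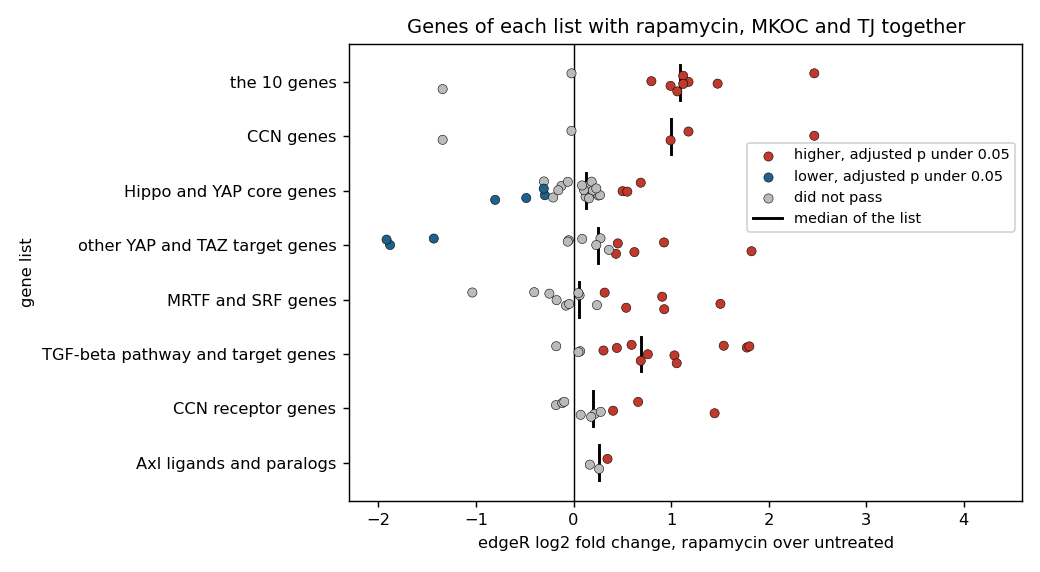
EdgeR log2 fold change with rapamycin for the 10 genes and the genes of each pathway list, 1 point per gene, scattered vertically to separate points, with black bars at list medians. Red and blue points passed an adjusted p under 0.05 (higher and lower), and medians run from 0.06 (MRTF and SRF genes) to 1.09 (the 10 genes).

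Of the genes tested with rapamycin that had a promoter window, 14.6% of 9514 held the TEAD hexamer, and 17.2% of the 1683 that rose did. The 6 genes printed above all rose and all held it, but they were listed as YAP targets, so nothing is read from this. No window was found for *Nov* and *Wisp1*, which were not called higher.

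The untreated kidney lines were compared with the MEFs as 2 libraries of each cell type, a comparison in which genotype differs within the MEFs and is partly confounded with cell type. It reuses the untreated kidney libraries and the MEF libraries whose values chose *Nov* and *Ctgf*. For those genes nothing is read from it, and their levels above stand as a description. Of the other 8 genes, 1 (*Axl*) was higher in the kidney lines and 0 were lower at an adjusted p under 0.05, where 4.74% of 13473 genes were higher and 5.2% lower. *Axl* was higher by 1.55 on the log2 scale (SE 0.22, adjusted p = 0.0356), a 2.92-fold difference with a 95% interval of 1.93 to 4.42, and its groups did not overlap. *Ankrd1* was higher by 2.66 (SE 0.74, adjusted p = 0.0987) with groups that did not overlap. *Wisp2* had a log2 difference of -2.38 (SE 0.45, adjusted p = 0.0533). At an unadjusted p under 0.05, 2 of these 8 genes (*Axl* and *Ankrd1*) were higher and 1 (*Wisp2*) lower by edgeR, where 15.5% and 17% of all genes were, and DESeq2 and limma gave the same 3 genes. DESeq2 called all 3 after adjustment too (adjusted p = 0.000926 for *Ankrd1* and 3.95e-05 for *Wisp2*), where it called 14.1% of all genes higher and 15.3% lower.

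*Ajuba* was lower in both MEF libraries, with a log2 difference of 0.72 (SE 0.34, adjusted p = 0.23). Among untreated libraries, *Cyr61*, *Wisp1*, *Amotl2* and *Lats2* were each lowest in *Tsc2*+/+ MEFs and highest in *Tsc2*-/- MEFs. How many of all genes have that order was not counted, and TPM in *Tsc2*-/- MEFs is shifted up against *Tsc2*+/+ MEFs (median ratio 1.31). Without the *Tsc2*-/- MEF library 6 of the 8 genes were called higher in the kidney lines and 1 lower, where 28.6% and 27.5% of all genes were. Without the *Tsc2*+/+ library 2 were called higher and 4 lower, where 23% and 24.7% of all genes were. Without MKOC or without TJ, 0 genes of the whole table were called, *Axl* included (adjusted p up to 0.428). The fibroblast markers (1824 and 2502 TPM in the MEFs, 7.73 and 26.7 TPM in untreated TJ and MKOC) and kidney epithelial markers move with this comparison, and their part in it was not tested.

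The kidney lines were also set side by side. In TJ over MKOC, with 1 added to each TPM, 0 of the 10 genes were at least 2-fold higher and 0 at least 2-fold lower at both treatments, where 0.959% and 0.314% of 12414 genes were, so nothing is read from these counts. Untreated ratios of TPM ran from 0.774 (*Nov*, on 26 and 18.1 read pairs) to 1.45 (*Cyr61*). With rapamycin the highest ratio was that of *Nov*, 3.72 (counting interval 1.02 to 20.4), on 3.01 read pairs in MKOC and 13 in TJ. *Wisp2* was then 2.11 times higher in TJ (counting interval 1.54 to 2.94), while *Cyr61* and *Ctgf* were at 0.844 and 0.768 of their MKOC level. For *Cyr61* and *Ctgf* TJ thus lay above MKOC when untreated and below it with rapamycin. With 1 library each, no test was made.

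Most of the genes were read from 1 main transcript. *Cyr61*, *Nov*, *Ankrd1* and *Ajuba* had 1 transcript in the table. The main transcript took 86.8% to 100% of read pairs for *Ctgf* and 87.7% to 92.2% for *Axl*. *Amotl2* was the exception: of its 14 transcripts, the main one took 71.3% of read pairs in *Tsc2*+/+ cells, while in *Tsc2*-/- cells it took 48.5% and another took 28.3%. *Ctgf* overlaps the antisense gene Gm15270, and *Lats2* overlaps Gm49361 on its own strand, so a share of their read pairs may belong to those genes. The kit is stranded, but whether the counting used strand is not given in the sources used here.

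Profiles over the 6 libraries were compared on the log2(TPM + 1) scale with 10115 genes that reached 10 TPM in at least 1 library. *Ctgf* was closest to *Dpy19l1* (Pearson r 0.998), *Cyr61* (0.996) and *Add1* (0.995). *Cyr61* was closest to *Phldb2* (0.998), *Dpy19l1* (0.996) and *Klf3* (0.996). *Amotl2* (0.971) and *Ajuba* (0.956) followed *Ctgf* closely, *Nov* did not (0.06), and *Wisp2* had -0.19. *Nov* was closest to *Serpina3n*, *Phf23* and *Mbd3* (0.998 each), all with their highest level in *Tsc2*-/- MEFs. These correlations describe 6 points that share lines and treatments.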

How the data were processed

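RNA-Seq of poly(A) RNA was measured in 6 libraries, each 1 condition. The authors made stranded libraries, trimmed the reads and quantified mouse transcripts with Kallisto, and deposited estimated counts and TPM per transcript (88198 transcripts, version and release not given in the sources used here). The deposited fold change per transcript, a ratio between the MEF libraries, was used for its gene symbols alone.

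Estimated counts and TPM were summed per symbol (30281), leaving out transcripts with no symbol (0.372% to 0.468% of counts), and counts were rounded. The MEF and TJ over MKOC comparisons used log2(TPM + 1), a 2-fold limit and no test. For rapamycin and for untreated kidney lines against MEFs, genes were filtered with filterByExpr, scaled by TMM and tested by quasi-likelihood in edgeR, with p-values adjusted by Benjamini and Hochberg's method over all genes and called under 0.05. The rapamycin fit had the line as a block, which the labels name. Deviations of the libraries of a line correlated at 0.562 over 12952 genes. Totals of 22887020 to 37505004 counts set the precision. Intervals (95%) of single levels and of TPM ratios cover counting error only. Those of edgeR fold changes also cover the fitted spread between libraries.

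The genes named are the 10 members, from each list the 2 largest rises and falls, the 3 genes most like *Ctgf*, *Nov* and *Cyr61*, and *Tsc2*. *Yap1*, *Wwtr1*, *Lats1*, *Tyro3*, *Sdc4*, *Cldn4*, *Smad7*, *Tgfbr2*, *Wisp3*, *Pax8*, *Umod*, *Lhx1* and *Aqp2* were added after their values were seen. The members and lists were chosen with earlier results of these data known. Positions are from GENCODE M21 (GRCm38) and promoters from RefSeq (GRCm38.p6). Alternatives were pseudocounts of 0.1, 0.5 and 5 TPM, median scaling, CPM, the highest transcript, no filter, upper quartile scaling, DESeq2, limma, no block and leaving out each library. The steps were tested on simulated data. The work used R 4.3.3 (with DESeq2 1.42.0, limma 3.58.1 and edgeR 4.0.16) and Python 3.11.15 (with matplotlib 3.10.9, scipy 1.17.1, pandas 2.3.3 and numpy 2.4.6).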

Additional observations from a re-analysis of the deposited data

Results flagged for a closer look

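*Wisp1* had log2 TPM ratios with rapamycin of opposite sign in the kidney lines, 0.07 in MKOC and -0.05 in TJ, a difference of 0.12 between them. The counting interval of the plain TPM ratio included no difference in both lines (0.989 to 1.12 in MKOC and 0.900 to 1.03 in TJ). Each line has 1 library per treatment, and the difference was not tested.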

How the results depend on the processing

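Of the single log2 ratios between the MEF libraries, 34 moved beyond their counting interval under an alternative and 26 did not: *Ctgf* went from 5.67 to 8.51 with 0.1 added in place of 1 and to 3.50 with 5 added, *Nov* from 4.17 to 5.20 and 2.60, and *Wisp2* from 0.71 to 0.34 with CPM. In the MEF comparison 7 or 8 of the 10 genes were past 2-fold higher and 0 lower under each pseudocount, scaling and filter tried, and in TJ over MKOC 0 were past it in either direction under each pseudocount and scaling. With rapamycin 7 or 8 genes were called higher and 0 lower under every alternative that gave a test, though *Nov* was not fitted by limma and had no adjusted p with DESeq2. No residual spread was left for a rapamycin test without MKOC or without TJ, which gave values only. Without the line as a block, 559 genes of the whole table rose and 716 fell in place of 2267 and 2259, and DESeq2 called 1466 and 1596. Upper quartile scaling gave 2474 and 2003. Between untreated kidney lines and MEFs, DESeq2 called 2 of the 10 genes higher and 2 lower. Leaving out 1 library left 1 in a group, so those fits are given as effect sizes only. These counts include *Nov* and *Ctgf*, for which nothing is read from them; over the other 8 genes DESeq2 called 2 higher and 1 lower, and the ranges were 0 to 6 and 0 to 4. Without the *Tsc2*-/- MEF library, log2 differences were 1.14 for *Wisp1* and 1.96 for *Amotl2*, opposite in sign to those with all libraries (-0.46 and -0.30), and without the *Tsc2*+/+ library they were -1.17 and -1.11. For *Ctgf* the values were 8.65 and -1.01, beside -0.03 with all libraries, a spread that its choice by the MEF values fixes. Over the whole table that comparison gave 638 genes higher and 700 lower, 1906 and 2063 with DESeq2, and 525 and 447 with limma. The cause was not tested. Depth limits *Nov* in the kidney lines and *Ctgf* in *Tsc2*+/+ MEFs, where values rest on few read pairs.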
